A study of Mus musculus with 10 samples.

Results

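Extracellular and lysosomal proteases and their inhibitors were examined in mouse urinary bladder. The members were the probes whose gene symbol belonged to the kallikreins, Prss serine proteases, mast cell proteases, granzymes, cathepsins, Masps, matrix metalloproteinases, Timps, Adams, serpins, cystatins or plasminogen activators, or was F2, F3, F5, F7, F8, F9, F10, Plg, Prtn3, Elane or Acr. This gave 111 genes with 1 probe each, of 5030 probes on the array. No probe named F9, Tpsab1 or Klk1 was among them. Cmah, which makes an activated sialic acid and is no protease, was matched by its letters only. Female PAR1-/- mice and C57BL/6J wild type (WT) mice received Escherichia coli LPS (100 µg/ml), substance P (SP) or saline into the bladder. LPS is a bacterial cell wall component and SP is a neuropeptide of sensory nerves. The SP dose was 20 µM in the labels of the PAR1-/- arrays and 10 µM in those of the WT arrays, and the methods of the study give the lower dose for both genotypes. Bladders were taken at 24 h or 4 h after LPS and SP, and at 24 h only after saline. Each of the 10 conditions was 1 pool of 8 bladders on 1 array, so that a ratio between 2 arrays had no replicate check and no p. Values from whole pooled bladders cannot tell fewer cells of a type from less RNA per cell.

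Proteases of these families cut matrix, clotting factors, complement and cell surface receptors, and most are made as inactive precursors. Proteinase-activated receptors are switched on when a protease cuts their outer end. Thrombin is the classical activator of PAR1, the receptor missing in PAR1-/- mice, and trypsin and mast cell tryptase act mainly on PAR2. Serpins, Timps and cystatins hold serine proteases, metalloproteinases and cysteine cathepsins in check.

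Promoters of several matrix metalloproteinases carry a binding motif of AP-1, a Fos and Jun transcription factor, and the stretches around it are shown because Mmp7 and Mmp12 were the metalloproteinases past 3-fold over saline. RefSeq start sites (GRCm38.p6) were listed for 83 of the member genes. Of these, 10 held the heptamer TGAGTCA, on either strand, in the 250 bases before a start (12.0%), against 5.16% of all 27025 genes listed. Capitals mark the heptamer as read on the strand of the gene (TGACTCA is the same site on the other strand), each line running 5′ to 3′. All 4 genes lie on the + strand, at chr9:7692017-7692043 (Mmp7, the heptamer starting 63 bases before the start site), chr9:7347320-7347346 (Mmp12, 44 bases before 1 of its listed starts), chr9:7445766-7445792 (Mmp3, 46 bases) and chr9:7272469-7272495 (Mmp13, 35 bases).
Mmp7: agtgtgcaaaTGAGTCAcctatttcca
Mmp12: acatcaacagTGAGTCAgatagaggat
Mmp3: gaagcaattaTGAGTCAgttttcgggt
Mmp13: cccaaagtggTGACTCAtcactatcat
The other 6 genes with the heptamer were Adam19, F3, Gzmb, Plaur, Serpina1a and Serpina1b. A match describes these letters only. The genes that share it did not share one pattern on the arrays, as the values below show.

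The deposited values are scores in which each probe had been centred and scaled over the 10 arrays, and whole-number spot intensities were rebuilt from them for 4895 probes and 108 members. A spot counted as above background when it exceeded 3 SD over the background mode of its array. Between 28.7% and 45.3% of probes passed this on 9 arrays, and 10.7% did for WT bladders given LPS for 24 h, where 88.2% of probes read exactly 15 and 15 of 108 members were above background. Total intensity ran from 64851 on the PAR1-/- saline array to 234500 on the PAR1-/- array of SP at 4 h. Saline arrays of both genotypes were among the dimmest, at 64851 in PAR1-/- and 67258 in WT mice. The part of brightness in the ratios below was not tested. F2r, the gene of PAR1, read 18, 17, 21, 51 and 11 on the PAR1-/- arrays of LPS at 24 h, LPS at 4 h, SP at 24 h, SP at 4 h and saline, against 15, 195, 11, 22 and 10 on the matching WT arrays. The probe thus did not separate the genotypes, where it lies relative to the deletion was not known, and genotypes are those of the labels. Smooth muscle markers were above background on some array for 5 of 5 genes, with a summed normalized intensity of 130 to 405 in PAR1-/- and 128 to 315 in WT bladders. Of the fibroblast genes, Pdgfra was above background on 9 arrays, and Dcn, Lum and Col1a2 on none. Upk2, the urothelial marker measured, was above background on 4. Of 5 testis markers, 4 were above background on at least 1 array of these female bladders. For genes outside the family with more than 1 probe, the median correlation of 34 probe pairs over the 10 arrays was 0.2, against 0.31 over all pairs of probes.

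Of the 108 members with rebuilt intensities, 74 were above background on at least 1 array (68.5%, against 65.3% of all probes), and 34 on none. In 13 cases only 1 array passed. The 11 members above background on every array were Gzmb, Gzmc, Klk11, F3, Plau, Ctsa, Ctsk, Mmp12, Timp1, Adam9 and Cst9. The limma test covered the 1973 probes above background on at least 4 arrays, 47 of them members. Normalized intensity below is the spot intensity after a robust linear regression on the 454 probes above background on all arrays. Challenged values are listed as LPS 24 h, LPS 4 h, SP 24 h and SP 4 h. Most ratios to saline were higher before normalization. Where an array was below background, the ratio is a bound set at its threshold. In WT bladders after LPS for 24 h, a normalized intensity of 13.6 is a spot of 15, below that array's threshold of 31.3.

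**Figure D1:**
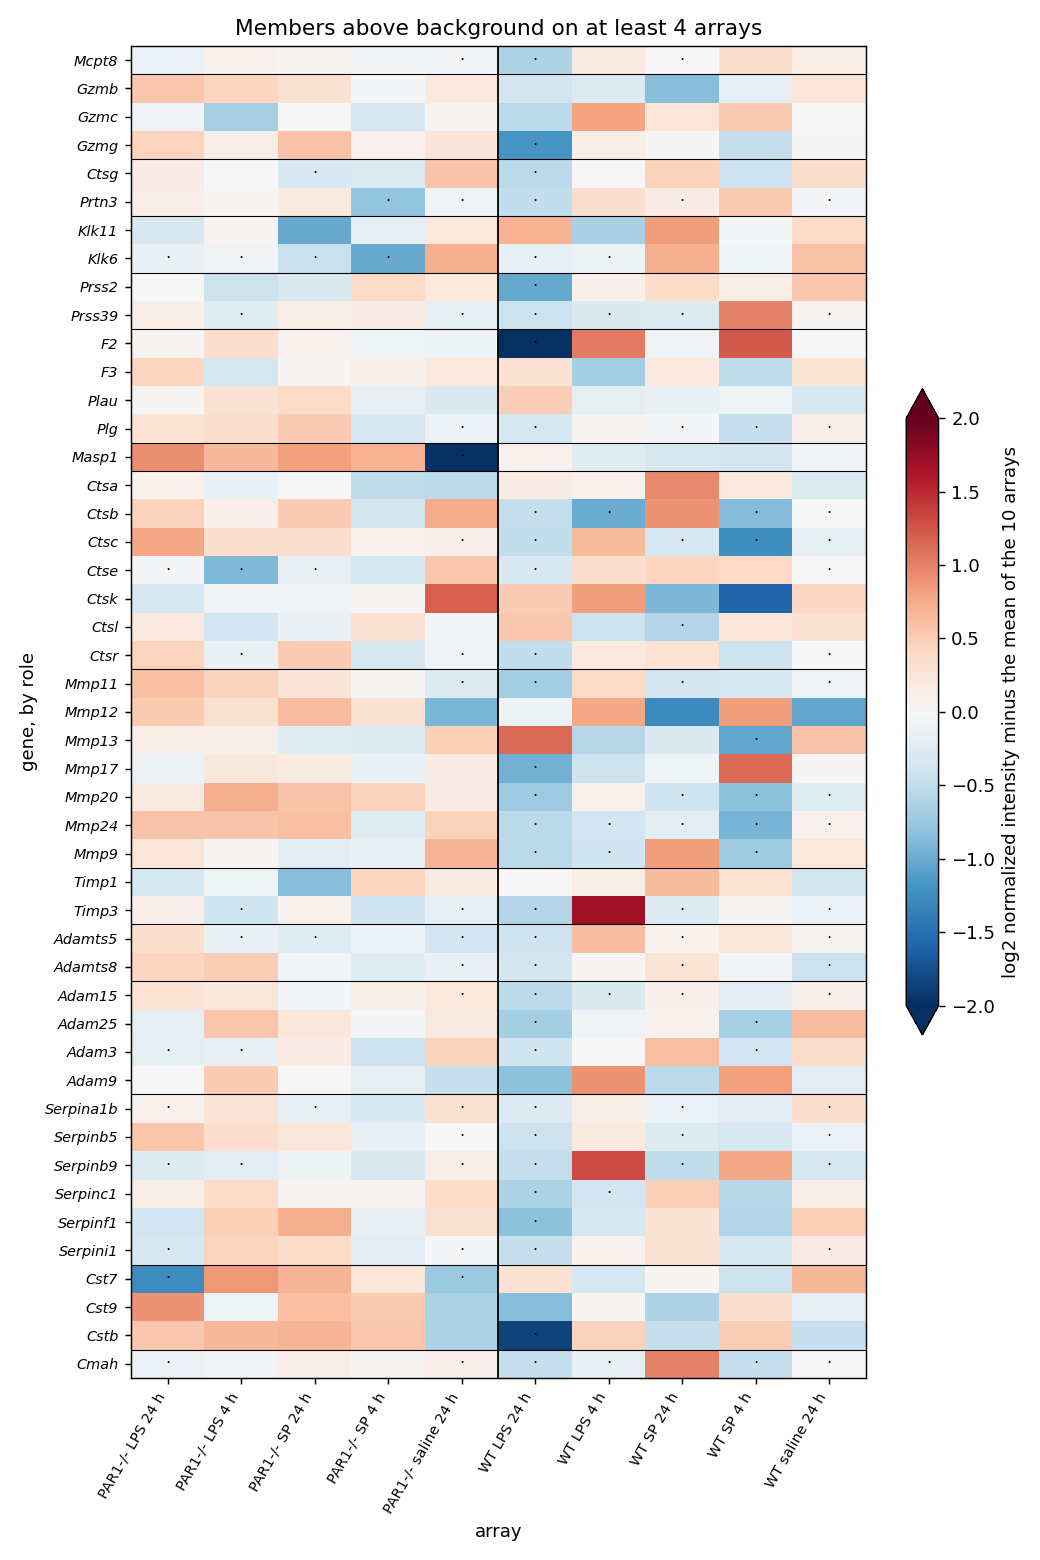
Log2 normalized intensity of the 47 members above background on at least 4 arrays, minus the mean of the 10 arrays for each gene; rows are genes in role order, with lines between roles, columns are arrays with PAR1-/- left of WT, and a dot marks a spot below background. The darkest cells are Masp1 on the PAR1-/- saline array and F2 and Cstb in WT bladders after LPS for 24 h, all 3 below background.

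Mast cell proteases were near background, with 57.1% of those rebuilt above it on at least 1 array, against 65.3% of all probes. Of the 7 rebuilt, Mcpt8, a basophil protease, was above background on 7 arrays, and Cma1 (mast cell chymase), Mcpt1 and Mcpt9 on 1 each. Mcpt1, a mucosal mast cell chymase, read 22 on the PAR1-/- saline array. It read 17, 13, 15 and 18 on the PAR1-/- challenged arrays, all below their thresholds of 17.9, 18.2, 18.1 and 25.2. On the WT arrays it was below background throughout, at 15, 12, 8 and 18 after challenge and 8 in saline. The single positive spot made Mcpt1 the only member past 3-fold down in PAR1-/- bladders, at no more than 0.27 of saline for SP at 4 h (1 of 33 members, against 1.72% of all probes). Tpsb2, a mast cell tryptase, stayed at background on all 10 arrays, reading 8 to 21 in PAR1-/- and 9 to 16 in WT bladders, as did Cma2 and Mcpt2. Of 4 other mast cell markers, Hdc was above background on 8 arrays, Ms4a2 and Fcer1g on 3 each and Fcer1a on 2. Their normalized intensities summed to 60.6 to 86.5 in PAR1-/- and 54.5 to 77.9 in WT bladders, with most spots below background.

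Granzymes, the killer proteases of cytotoxic lymphocytes, split into 3 detected (42.9%, against 65.3% of all probes) and 4 at background. Gzmb was above background on every array. Its normalized intensity was 110, 102, 93.6 and 75.2 in challenged PAR1-/- bladders, against 87.3 in PAR1-/- saline. The WT values were 58.7, 62.9, 42.1 and 67.4 after challenge, against 89.5 in saline. The 4 challenged PAR1-/- values all exceeded the 4 challenged WT values, while the saline values were nearly equal; before normalization the ranges met, with a lowest PAR1-/- spot of 126 and a highest WT spot of 130. The genotype difference in limma was 0.58 ± 0.28 (log2, SE; adjusted p = 0.513). Gzmc had 57.3, 38.1, 60 and 47.8 in challenged PAR1-/- bladders and 41.5, 105, 71.4 and 86.2 in challenged WT bladders, against 62.5 in PAR1-/- saline and 60.6 in WT saline. Gzmg reached 45.7 at most, in PAR1-/- bladders after SP for 24 h, while its highest spot before normalization, 76, was after SP for 4 h. Gzma, which can cut thrombin receptors, read 8 to 23 in PAR1-/- and 10 to 19 in WT bladders and passed no threshold, nor did Gzmd, Gzmk and Gzmm.

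Neutrophil serine proteases were low on every array. Ctsg (cathepsin G) was above background on 8 arrays. Its normalized intensity was 21.9, 19.7, 16.1 and 16.4 in challenged PAR1-/- bladders, against 29.5 in PAR1-/- saline. The WT values were 13.6, 19.9, 27.2 and 14.9 after challenge, against 25 in saline. The spots of PAR1-/- bladders after SP for 24 h and WT bladders after LPS for 24 h were below background, and the latter gave no ratio or bound. Of the other comparisons with saline, only WT after SP for 24 h was above 1, at 1.09-fold. Before normalization every ratio of spots was above 1, those below background included. Prtn3 (proteinase 3) was above background on 5 arrays, with its highest normalized intensity, 27.6, in WT bladders after SP for 4 h. Elane (neutrophil elastase) passed on the WT saline array alone, reading 13. Among neutrophil markers, S100a9 was above background on 8 arrays, Camp on 3, Csf3r and Ltf on 2 each and S100a8 on none, and the 5 summed to 67.4 to 95.8 in PAR1-/- and 68.1 to 110 in WT bladders.

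Tissue kallikreins and trypsin-like proteases held 1 member past 3-fold over saline. Acr (acrosin, the trypsin-like protease of the sperm acrosome) had spot intensities of 77, 30 and 14 in WT bladders after LPS for 4 h, SP for 4 h and SP for 24 h. It read 15 after LPS for 24 h and 12 after saline in WT bladders, both below background, and 10 to 23 on the PAR1-/- arrays, all below background. The ratio for LPS at 4 h in WT bladders was at least 3.46-fold. Klk11 was above background everywhere, with normalized intensities of 58.1, 75.6, 36.1 and 64.1 in challenged PAR1-/- bladders, against 84.5 in PAR1-/- saline. WT bladders had 118, 46.6, 130 and 71.7 after challenge, against 94.5 in saline. Both WT arrays at 24 h lay above both WT arrays at 4 h, and PAR1-/- bladders had 0.279 of the WT level after SP for 24 h (1 of 41 members past 3-fold down, against 1.82% of all probes). Both patterns depended on scaling: before normalization the challenged WT spots of Klk11 read 105, 49, 59 and 139, and the ratio was 0.746. Klk6 was above background on 4 arrays, 2 of them the saline arrays (limma challenge adjusted p = 0.543). Prss2, an anionic trypsinogen, peaked at a normalized intensity of 40 in WT saline. Before normalization its highest spot was 84, in PAR1-/- bladders after SP for 4 h, against 21 in WT saline. Prss39, a testis protease, peaked at 36.7 in WT bladders after SP for 4 h. Klk1b16, Prss30 and Prss40 passed on 1 or 2 arrays, Klk4 on 3, and Klk1b5 and Prss12 on none.

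Among clotting and fibrinolysis genes, F2 (prothrombin, the precursor of the main PAR1 activator) was above background on 9 arrays. Its normalized intensity in challenged PAR1-/- bladders was 74.7, 91.7, 76.7 and 68.5, against 67.9 in PAR1-/- saline, which is 1.01-fold to 1.35-fold. In challenged WT bladders it was 13.6 (below background), 149, 69.1 and 170, against 72.4 in WT saline, which is 2.05-fold for LPS at 4 h and 2.34-fold for SP at 4 h. After normalization the high values thus lay on the WT arrays at 4 h. Before normalization the PAR1-/- ratios of F2 were 3.03, 3.93, 3.37 and 5.9, and the WT ratios were 0.429, 4.17, 0.971 and 10.2. The time difference of F2 in limma, 24 h minus 4 h, was -1.22 ± 0.46 (log2, SE; adjusted p = 0.49, with 1 of 4 pairs higher at 24 h and the WT spot of LPS at 24 h below background). F3, tissue factor, which starts the extrinsic clotting cascade, had 203, 118, 154 and 162 in challenged PAR1-/- bladders, against 172 in PAR1-/- saline, and 184, 94.2, 173 and 106 in challenged WT bladders, against 181 in WT saline. Plau (urokinase, a plasminogen activator) was higher than saline on 8 of 8 challenged arrays. It had 108, 130, 140 and 95 in challenged PAR1-/- bladders against 87.3 in saline, and 151, 94.2, 97.5 and 101 in challenged WT bladders against 84.6 in saline. Its ratios ran from 1.09-fold to 1.61-fold in PAR1-/- and from 1.11-fold to 1.78-fold in WT bladders. For scale, the log2 difference between the saline arrays of both genotypes had an SD of 0.44 over 1072 probes, or 1.35-fold. Plg (plasminogen) passed on 5 arrays, peaking at 24.8 in PAR1-/- bladders after SP for 24 h. Plat (tissue plasminogen activator) read 9 to 12 in PAR1-/- and 8 to 17 in WT bladders and Plaur (urokinase receptor) 8 to 17 in PAR1-/- and 11 to 19 in WT bladders, all at background. F10 and F8 were at background as well.

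Masp1, a serine protease of the lectin pathway of complement, was above background on every array but one. Its normalized intensity was 158, 130, 146 and 135 in challenged PAR1-/- bladders, against 18.2, below background, in PAR1-/- saline. WT bladders had 88.3, 70.1, 66.8 and 64.6 after challenge, against 79.7 in saline. Thus 9 of 10 arrays carried a clear signal and the PAR1-/- saline array, with a spot intensity of 10 against a threshold of 12.8, did not. The lower bounds were 6.47-fold for LPS at 24 h, 5.3-fold for LPS at 4 h, 5.97-fold for SP at 24 h and 5.52-fold for SP at 4 h in PAR1-/- bladders. Masp1 was the only member past 3-fold up there, 1 of 36, 36, 36 and 33 members, against 1.13%, 1.26%, 1.38% and 0.955% of all probes. The WT ratios were 1.11, 0.88, 0.838 and 0.81. All 4 bounds rest on the same saline spot. Against the matching WT arrays, the challenged PAR1-/- values were 1.79-fold, 1.85-fold, 2.19-fold and 2.09-fold, and the PAR1-/- saline array had at most 0.307 of the WT saline level (1 of 35 members past 3-fold down, against 0.304% of all probes). The genotype by challenge term in limma, which uses that spot as if it were measured, did not pass (adjusted p = 0.373). Masp2, the partner protease, passed on 3 arrays and never exceeded a normalized intensity of 19.7.

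**Figure D2:**
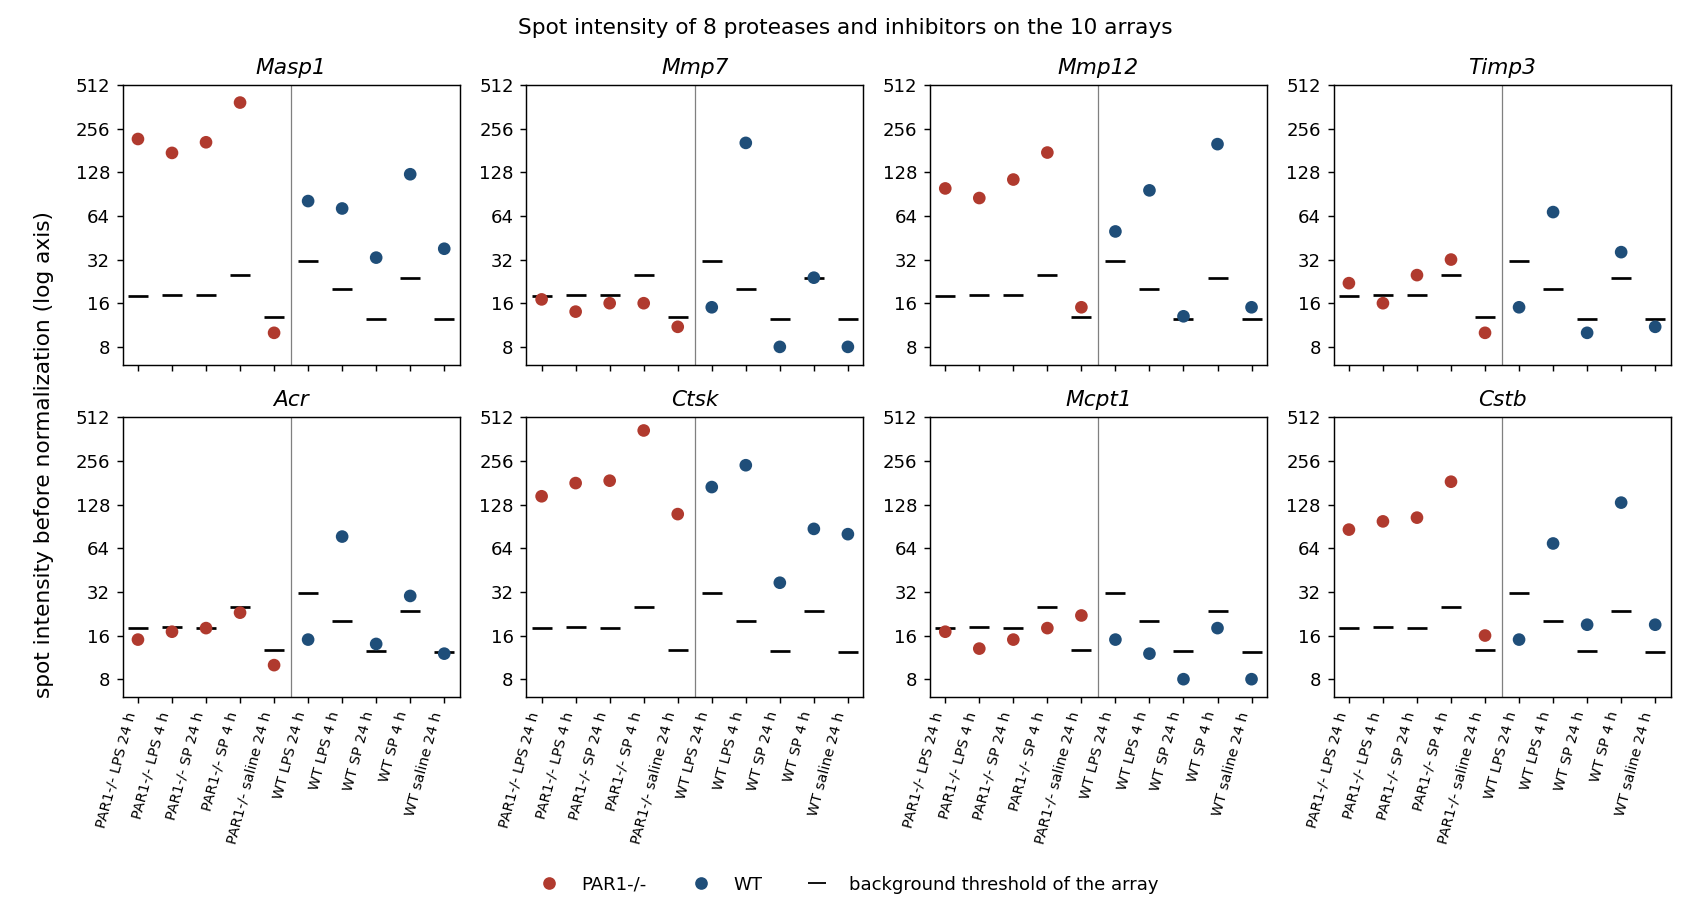
Spot intensity before normalization (log axis) of 8 members on the 10 arrays, PAR1-/- left and WT right, with a dash at each array's background threshold. Masp1 falls below its threshold on the PAR1-/- saline array alone (10 against 12.8), and Mmp7 (204), Timp3 (68) and Acr (77) stand out in WT bladders after LPS for 4 h.

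Cathepsins, the lysosomal proteases, were led by Ctsk, the bone-resorbing cysteine cathepsin. Its normalized intensity was 112, 134, 134 and 143 in challenged PAR1-/- bladders, against 323 in PAR1-/- saline, which is 0.348 to 0.444 of saline. In WT bladders it was 200, 251, 76.1 and 46.7 after challenge, against 189 in saline. In WT bladders both LPS values were thus above saline and both SP values below it, at 0.402 for 24 h and 0.247 for 4 h. The last ratio made Ctsk the only member past 3-fold down in WT bladders (1 of 37, against 1.24% of all probes). The direction in PAR1-/- bladders depended on scaling: before normalization the ratios were 1.33, 1.64, 1.7 and 3.77, while the WT ratio for SP at 4 h was 1.09. PAR1-/- over WT was 3.07-fold after SP for 4 h (1 of 54 members past 3-fold up, against 0.781% of all probes). Limma gave a challenge difference of -1.01 ± 0.44 and an LPS minus SP difference of 0.87 ± 0.4 (log2, SE; adjusted p = 0.543 and 0.998). Ctsa, the lysosomal protective protein, was above saline on 8 of 8 challenged arrays. It had 58.8, 51, 55.7 and 39.6 in challenged PAR1-/- bladders against 39.2 in saline, and 62.2, 59.8, 110 and 64.6 in challenged WT bladders against 46.7 in saline. It was lower in PAR1-/- than in WT bladders under all 5 conditions, with ratios of 0.508 to 0.946, and under 3 of 5 before normalization. Ctsb had 26.1, 20.5, 27.1 and 14.7 in challenged PAR1-/- bladders and 13.6, 9.54, 35.6 and 10.4 in challenged WT bladders, against 31.9 in PAR1-/- saline and 18.9 in WT saline. Its 24 h values exceeded the 4 h values in both PAR1-/- pairs and in the WT pair of SP (limma adjusted p = 0.483). The WT spots of Ctsb after LPS were below background at both times, as was the WT spot of SP at 4 h. Before normalization that WT pair of SP read 19 at 24 h and 17 at 4 h. Ctsl peaked at 37.1 in WT bladders after LPS for 24 h, while its highest spot before normalization, 72, was in PAR1-/- bladders after SP for 4 h. Ctsc, which activates granule serine proteases, was above background on 4 PAR1-/- arrays and 1 WT array, and where both genotypes were measured, after LPS for 4 h, PAR1-/- over WT was 0.804. Ctsd and Ctsh, both major lysosomal proteases, were at background on all 10 arrays.

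Matrix metalloproteinases included a gene seen almost only on 1 array. Mmp7 (matrilysin, an epithelial metalloproteinase) had a normalized intensity of 212 in WT bladders after LPS for 4 h, a spot intensity of 204. On the other WT arrays the spots read 15, 8, 24 and 8 for LPS at 24 h, SP at 24 h, SP at 4 h and saline, and on the PAR1-/- arrays they read 11 to 17. Apart from the SP array at 4 h, at 24 against a threshold of 23.7, all of these were below background. The ratio was at least 9.73-fold. Mmp7, Mmp12, Acr and Timp3 were the members past 3-fold up for LPS at 4 h in WT bladders (4 of 49, or 8.16%, against 5.62% of all probes). In PAR1-/- bladders at the same point, Mmp7, Acr and Timp3 had at most 0.0818, 0.23 and 0.263 of the WT level (3 of 59 members past 3-fold down, or 5.08%, against 3.44% of all probes). F2r (195) and Cpe (122), a carboxypeptidase, were also high on this 1 array, and it had no replicate.

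Mmp12 (macrophage elastase) was above background on every array, on some only narrowly. Its spots read 15 on both saline arrays, against thresholds of 12.8 in PAR1-/- and 12.4 in WT bladders. In WT bladders after SP for 24 h the spot read 13, against 12.5. All ratios of Mmp12 to saline rest on those saline spots. Its normalized intensity was 80.3, 68.5, 85.5 and 67.8 in challenged PAR1-/- bladders, against 29.5 in PAR1-/- saline, and 51.7, 95.2, 23.1 and 100 in challenged WT bladders, against 27.1 in WT saline. The PAR1-/- ratios lay together, at 2.72-fold, 2.32-fold, 2.9-fold and 2.3-fold. The WT ratios were 1.91-fold and 3.52-fold for LPS at 24 h and 4 h, and 0.853-fold and 3.7-fold for SP at 24 h and 4 h. For SP at 4 h, Mmp12 was the only member past 3-fold up in WT bladders (1 of 37, or 2.7%, against 3.89% of all probes). PAR1-/- over WT was 3.71-fold after SP for 24 h (1 of 41 members past 3-fold up, against 1.53% of all probes), resting on the WT spot of 13. Challenged arrays were above saline in 7 of 8 comparisons, with a limma difference of 1.22 ± 0.42 (log2, SE; unadjusted p = 0.0106, adjusted p = 0.543). Macrophage markers did not go one way: in WT bladders after LPS for 4 h Csf1r had 0.317 of saline and C1qc at least 1.95-fold, and Cd68, C1qa and C1qb were at background on all arrays. The 5 macrophage markers summed to 70 to 112 in PAR1-/- and 68.1 to 133 in WT bladders. Their part in the Mmp12 values was not tested.

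Other metalloproteinases were weaker. Mmp13 (collagenase 3) had 31.1, 30.3, 24 and 23.3 in challenged PAR1-/- bladders, against 39.2 in saline, and 62.2, 19, 23.1 and 13.8 in challenged WT bladders, against 42.2 in saline. It was higher than saline in WT bladders after LPS for 24 h alone, the array where 88.2% of probes read exactly 15. Before normalization the PAR1-/- ratios were 1.47 to 2.68, and the WT ratios were 2.68, 0.955, 0.591 and 1.05. Mmp17, a membrane-anchored member, peaked at 57.9 in WT bladders after SP for 4 h, 2.14-fold over saline, and otherwise ran from 13.6 to 31.1. Mmp20 (enamelysin) had 25.3, 37.3, 33.2, 31 and, in saline, 24.9 in PAR1-/- bladders, all above background. On the WT arrays only LPS at 4 h was above background, at 23.8, where PAR1-/- over WT was 1.57-fold. Mmp24 was likewise above background on all 5 PAR1-/- arrays, at 16.8 to 30.1, and on none of the 5 WT arrays. Both entered the limma test through their PAR1-/- arrays, and neither passed it for genotype (adjusted p = 0.332 and 0.364). Mmp9 (gelatinase B, a neutrophil enzyme) never exceeded 35.6, and Mmp8, neutrophil collagenase, passed on 2 WT arrays, both at 4 h. Mmp3 (stromelysin 1), whose promoter holds the heptamer shown above, passed on 3 WT arrays and reached 25.1 at most. Mmp2 (gelatinase A), Mmp14 and Mmp16 were at background on all 10 arrays, Mmp2 reading 9 to 23 in PAR1-/- and 8 to 16 in WT bladders.

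Inhibitors of the metalloproteinases were represented by 3 Timps. Timp1 had 68.3, 82, 47.9 and 117 in challenged PAR1-/- bladders, against 98.8 in PAR1-/- saline. In WT bladders it had 85.9, 95.2, 135 and 105 after challenge, against 67.6 in saline. All 4 WT ratios were above 1, at 1.27 to 1.99, and 3 of the 4 PAR1-/- ratios were below 1, at 0.484 to 0.83. Before normalization all 8 ratios were above 1, the PAR1-/- ones at 1.46 to 8. Timp3, the matrix-bound inhibitor, had 66 in WT bladders after LPS for 4 h, against 18.9, below background, in WT saline, at least 3.03-fold. It had 15.5 to 21.9 in PAR1-/- bladders. This ratio sat at the threshold, at 2.8-fold with quantile normalization and 2.66-fold with a median shift. Timp2 passed on 1 array.

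Adam proteases shed cell surface proteins or serve in sperm, and 9 of 15 were at background on all arrays, Adam10 and Adam17 (the main sheddases) among them. The share above background on at least 1 array was 40%, against 65.3% of all probes. Adam9 was above background on every array. It had 57.3, 81.3, 57.2 and 51 in challenged PAR1-/- bladders, against 41.7 in saline, and 32.6, 107, 39.9 and 102 in challenged WT bladders, against 49 in saline. As with F2 and Mmp12, its WT values at 4 h stood above those at 24 h. The WT ratios were 2.18-fold for LPS and 2.08-fold for SP at 4 h, and the limma time difference was -0.85 ± 0.34 (log2, SE; adjusted p = 0.523). Adam3, a sperm protein, ran from 13.4 to 27.2, Adam25 from 13.6 to 33.5 and Adam15 from 13.6 to 23.6. Both values of 13.6 were below background, in WT bladders after LPS for 24 h. Adamts5 and Adamts8, which cut proteoglycans, peaked at 27.7 in WT bladders after LPS for 4 h and at 24.7 in PAR1-/- bladders after LPS for 4 h. Before normalization their highest spots, 37 in WT and 30 in PAR1-/- bladders, were after SP for 4 h. Adamts1 was at background, reading 9 to 14 in PAR1-/- and 8 to 17 in WT bladders.

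Serpins passed background at a share near that of all probes. Of 16 rebuilt, 10 passed on some array (62.5%, against 65.3% of all probes). None passed on all 10, as 454 of 4895 probes did. Serpinb9, the inhibitor of granzyme B, had 46.6 in WT bladders after LPS for 4 h and 32.2 after SP for 4 h, at least 2.14-fold and 1.48-fold over saline. In PAR1-/- bladders it ran from 15.5 to 20.4. Serpina5, the protein C inhibitor, had 48.6 in WT bladders after LPS for 4 h, at least 2.23-fold over saline, and 23 in PAR1-/- bladders. Serpinf1 (PEDF) had 18.4, 33.4, 39.8 and 21.3 in challenged PAR1-/- bladders against 29.5 in saline, and 13.6, 19, 29.2 and 16 in challenged WT bladders against 33.5 in saline. Serpinc1 (antithrombin, the main inhibitor of thrombin) ran from 13.6 to 29.2, and its ratios to saline were below 1 in 4 of 4 PAR1-/- comparisons and above 1 in all 4 before normalization. Serpini1 peaked at 25.5 and Serpinb5 at 27. Serpina3n, Serpina6, Serpinb2, Serpinb6a, Serping1 and Serpinh1 were at background throughout.

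Cystatins, the inhibitors of cysteine cathepsins, were all above background somewhere (4 of 4, against 65.3% of all probes). Cstb (cystatin B) had 71.1, 77.8, 78.7 and 70.8 in challenged PAR1-/- bladders, against 31.9 in PAR1-/- saline, which is 2.22-fold to 2.47-fold. In WT bladders it had 13.6 (below background), 67, 35.6 and 68.4 after challenge, against 35.6 in saline. Its WT ratios were 1.88-fold for LPS and 1.92-fold for SP at 4 h, and 0.999 for SP at 24 h. Cst9 had 114, 57.6, 92.3 and 87.3 in challenged PAR1-/- bladders, against 39.2 in saline, and 33.7, 61.9, 39.9 and 75.9 in challenged WT bladders, against 53.6 in saline. It was the only member past 3-fold up in PAR1-/- over WT after LPS for 24 h, at 3.39-fold (1 of 20, or 5%, against 2.22% of all probes), a comparison that used the nearly blank WT array. Cst7 had 48.7, 42.8 and 31.4 in PAR1-/- bladders after LPS for 4 h, SP for 24 h and SP for 4 h. It was below background in PAR1-/- bladders after LPS for 24 h and in saline. In WT bladders it had 32.6, 20.9, 27.2 and 19.7 after challenge, against 42.2 in saline. All 4 WT ratios were below 1 (before normalization 1.5, 1.05, 0.682 and 1.55), and the 3 PAR1-/- bounds were at least 1.99, 1.75 and 1.28. Cst3 (cystatin C), one of the commonest secreted inhibitors, passed on 3 arrays.

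**Figure D3:**
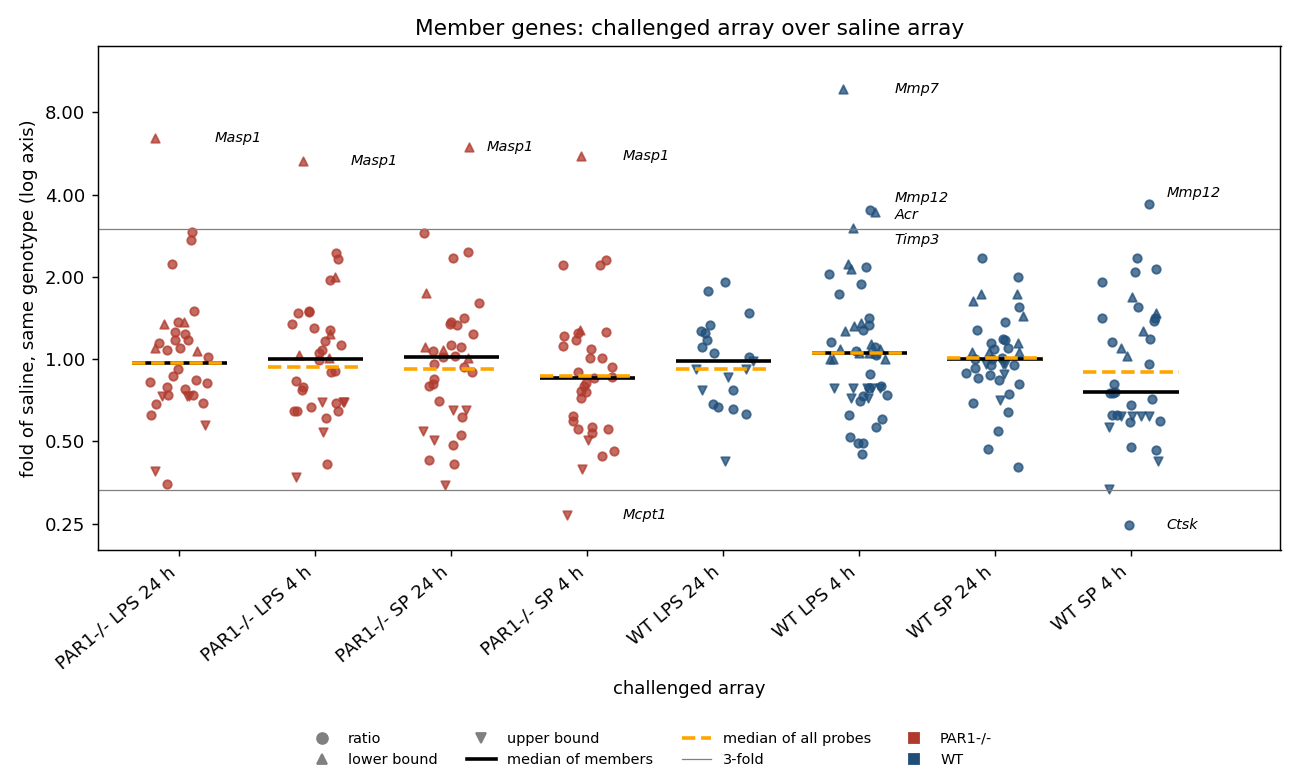
Ratio of each challenged array to the saline array of its genotype (log axis) for every member with a ratio or bound, PAR1-/- in red and WT in blue; triangles are bounds, thick bars are the medians of members and dashed bars those of all probes. Medians of members lie between 0.759 and 1.05, and the named points are the ratios past 3-fold.

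Over any of the 4 challenges, 1 of 40 members was past 3-fold up in PAR1-/- bladders and 4 of 55 were in WT bladders, against 2.73% and 6.48% of all probes. Past 3-fold down were 1 of 40 and 1 of 55, against 2.57% and 1.37%. The counts of members thus stood near the background. For single comparisons without a member past the limit, the shares of all probes were 0.951%, 0.837% and 1.32% down for LPS at 24 h, LPS at 4 h and SP at 24 h in PAR1-/- bladders. They were 1.08% up and 0.12% down for LPS at 24 h, 1.01% down for LPS at 4 h, and 0.729% up and 0.224% down for SP at 24 h in WT bladders. For PAR1-/- over WT they were 3.18% down after LPS for 24 h, 0.364% up after LPS for 4 h, 2.47% down after SP for 4 h and 0.669% up in saline. Leaving out the WT array of LPS at 24 h, which changes the probes used for normalization, the PAR1-/- counts became 3 up (Cst9, Masp1 and Mmp12) and 2 down (Ctsk and Mcpt1). The share of all probes was not computed for that setting. The median ratio of members to saline was 0.966, 1, 1.02 and 0.856 in PAR1-/- bladders and 0.984, 1.05, 1 and 0.759 in WT bladders. Over all probes it was 0.971, 0.939, 0.92 and 0.866 in PAR1-/- and 0.92, 1.05, 1.01 and 0.895 in WT bladders.

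In limma with Benjamini-Hochberg adjustment over the 1973 probes, 0 of 47 members passed an adjusted p of 0.05 for genotype, time, stimulus, challenge or the genotype by challenge interaction, against 0%, 0.304%, 0.152%, 0.101% and 0% of all probes. At an unadjusted p of 0.05, the members passing were 3 for genotype (6.38%, against 9.68% of all probes), 3 for time (6.38%, against 7.35%), 1 for stimulus (2.13%, against 1.93%), 4 for challenge (8.51%, against 9.02%) and 1 for the interaction (2.13%, against 2.08%). Spots below background enter these fits as they stand. On simulated arrays, 200 of 1973 probes were given a change of 2 on the log2 scale. It was recovered in 100% of changed probes for the first 4 tests and in 63% for the interaction, with 5 to 14 false calls. The real tests called 0 to 6 probes. An adjusted p is easier to pass when many probes change. The planted change was also larger in size than every member estimate in the first 4 tests. The largest of those were 0.84 for genotype, -1.22 for time, 0.87 for stimulus and 1.41 for challenge. The recovered shares thus do not tell what change in a single member would have been found here.

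**Figure D4:**
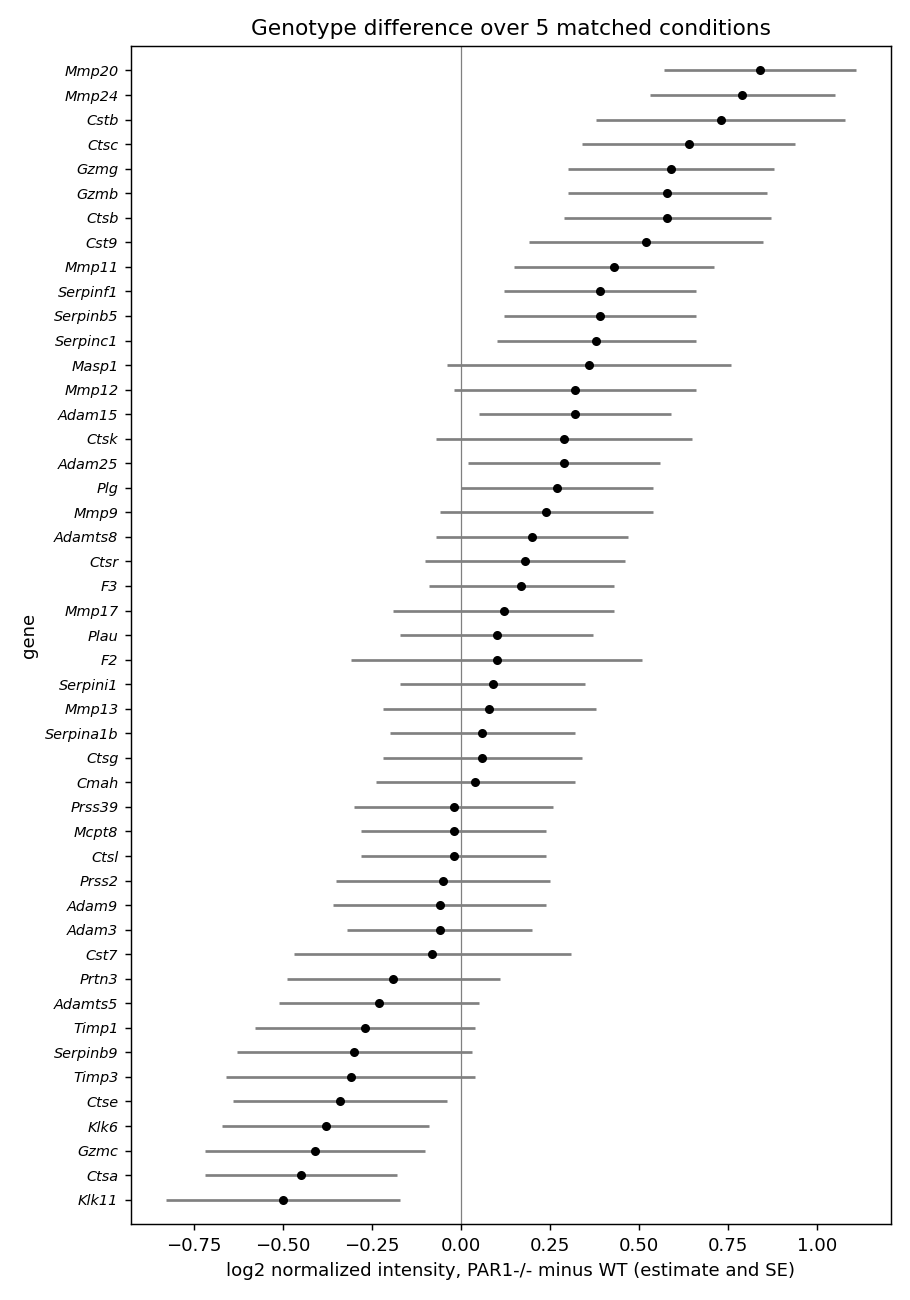
Difference in log2 normalized intensity, PAR1-/- minus WT, for the 47 members tested (point, limma estimate over 5 matched conditions; bar, SE). Estimates run from -0.5 for Klk11 to 0.84 for Mmp20, spots below background enter them as they stand, and no member passed the adjusted threshold.

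Related genes outside the family were read in the same way. Of 25 other proteases, Cpe was past 3-fold up, in WT bladders after LPS for 4 h (at least 5.64-fold), and none was in PAR1-/- bladders. Of 11 other inhibitors none was past 3-fold in either genotype. Of 12 protease receptors and cofactors, F2r was, at 9.27-fold or more in WT bladders after LPS for 4 h. Among the 13, 6 and 6 of these tested, limma called 0. Thbd (thrombomodulin) and Lrp1, which clears protease and serpin complexes, were above background on all 10 arrays with ratios of 0.499 to 1.99. Related genes on the array (Mcpt1 and Mcpt2, Gzmc, Gzmd and Gzmg, the Klk1b genes, Ctsj and Ctsr, Serpina1a and Serpina1b) may share signal. Their sequences were not compared, and cross-hybridization was not tested.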

How the data were processed

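RNA pooled from 8 bladders per condition was labelled with 33P and hybridized by the authors to Clontech Atlas plastic mouse 5K arrays, 1 per condition. The deposited values are scores: in log2 each probe had mean 0 and SD 0.3333 over the 10 arrays. Whole-number intensities were rebuilt as the smallest integers that give these scores within 7e-05 in log2, for 97.3% of probes. In a self-test 100% of 500 simulated probes were recovered. These were slightly altered copies of probes already rebuilt, so the self-test does not cover the probes that failed. Background was the density mode plus 3 SD of the values below it, a rule set here. As in the methods, arrays were scaled by robust regression on genes above background (MASS 7.3.60.0.1, R 4.3.3, log2 values). Challenged over saline used the 3-fold limit of the methods. limma 3.58.1 fitted genotype and condition to all 10 arrays (4 residual degrees of freedom), with Benjamini-Hochberg adjustment. With 1 array per condition its spread is the departure from additivity. Groups came from the design text. The intended test on intensities was kept on the rebuilt values. Members, roles and lists were chosen with earlier results of these data known. Genes named are those past 3-fold, the 4 brightest of each role, and proteases acting on PARs or named by the study; others are given as counts, or were named after their values were seen. All 111 members matched a RefSeq gene ID.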

Additional observations from a re-analysis of the deposited data

How the results depend on the processing

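Members called by limma stayed at 0 in all 5 tests under quantile normalization, a median shift, a background threshold of 2 SD, other filters and without the WT array of LPS at 24 h. Without normalization 4 of 47 members were called for time and 21 for challenge, against 191 and 967 of all 1973 probes. On the deposited scores as they stand 6 and 35 members were called, against 351 and 1533 of all probes. Without normalization the median of all probes moved by 0 to 1.78 in log2 over saline, and 29 members in PAR1-/- and 24 in WT bladders were past 3-fold up and 0 and 0 down. Under quantile normalization 2 members were up in PAR1-/- bladders. A median shift gave 4 down in PAR1-/- and 2 down in WT bladders. At 2 SD, 3 were up and 2 down in PAR1-/- bladders. At 2-fold in place of 3-fold, 4 were up and 6 down in PAR1-/- and 10 up and 8 down in WT bladders. With the mean of both saline arrays as reference, 2 were up and 0 down in PAR1-/- bladders. Chosen after seeing the data, leaving out the WT array of LPS at 24 h gave 3 up and 2 down in PAR1-/- bladders, and keeping values under background gave 2 up and 5 down in PAR1-/- and 3 down in WT bladders. For the fold counts under these settings no share of all probes was computed, so they do not set the members apart from other probes. The cause of each shift was not tested. The limma fit already matched the genotypes by condition, and no further replicate block could be fitted because each condition had 1 array. Of 108 members, 34 never passed background, and for those a difference was not detectable on these arrays.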

Other observations

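Cpa3, Ctsj and Serpina1a could not be rebuilt as intensities, and their deposited scores, which carry no level, are given as values. Cpa3 (mast cell carboxypeptidase) had scores of 1.17, 1.11, 1.15 and 1.29 in PAR1-/- bladders after LPS for 24 h, LPS for 4 h, SP for 24 h and SP for 4 h, against 0.663 in PAR1-/- saline, and 0.974, 1.05, 0.757 and 1.28 in WT bladders, against 0.796 in WT saline. Ctsj, a placental cathepsin, had 1.17, 1.17, 1.14 and 1.36 in challenged PAR1-/- bladders, against 0.711 in saline, and 0.872, 0.948, 0.768 and 1.29 in challenged WT bladders, against 0.808 in saline. Serpina1a (alpha-1 antitrypsin) had 1.04, 1.17, 0.802 and 0.921 in challenged PAR1-/- bladders, against 0.802 in saline, and 1.57, 1.17, 0.802 and 1.17 in challenged WT bladders, against 0.802 in saline. The scores are not scaled between arrays. Cmah had a normalized intensity of 17.5, 18, 20.9 and 19.7 in challenged PAR1-/- bladders, against 20.4 in saline, and 13.6, 17, 37.7 and 13.8 in challenged WT bladders, against 18.9 in saline.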
